A study of Homo sapiens with 9 samples.

Results

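Integrins and laminins were followed in RNA described as coming from IMR-32, a MYCN-amplified human neuroblastoma cell line. The members were all genes with a probe set of 1 gene symbol that named an integrin α chain, an integrin β chain or a laminin chain, and each gene was read by its brightest probe set over all 9 arrays. This gave 33 genes of 11963, namely 16 integrin α chains, 7 integrin β chains and 10 laminin chains, covered by 68 of the 22215 probe sets. The 3 groups of 3 single-channel oligonucleotide arrays were an IMR-32 line with stable expression of 69-kDa choline acetyltransferase (ChAT, the enzyme that makes acetylcholine), an IMR-32 line with stable expression of 82-kDa ChAT, and arrays labelled wild type, for which the labels name no transgene. The question put by the design was what each form changes against wild type, and the design text also compares the lines with each other. The design text describes the 3 arrays of a condition as biological replicates, so n = 3 for every group. Because a separate line carried each form, an effect of form and a difference between lines cannot be told apart. The sources used here do not name the promoter of the transgenes or say whether a line is a clone.

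The arrays labelled wild type went against their label. MYCN, the oncogene amplified in IMR-32, stood on them at 1.76% of its mean over both lines, with intensities from 62.5 to 120.5 against 4181 to 6118 on the 6 arrays of the lines. All 6 epithelial marker genes read higher on these arrays, with summed intensities of 5408 to 6176 against 253 to 296 in the lines, where EPCAM, KRT19, CDH1 and DSP were near background. The 10 measured neuroblastoma and sympathoadrenal markers had summed intensities from 1672 to 1887 there and from 9657 to 16062 in the lines. CHAT itself was 2.61 higher on the log2 scale in the 82-kDa line (limma adjusted p = 0.00057) and 0.64 higher in the 69-kDa line (adjusted p = 0.226). Over all probe sets the log2 values of the arrays labelled wild type correlated with the lines at 0.913 to 0.933, and the lines with each other at 0.975 to 0.998. Each rise or fall given here is therefore a difference from these arrays, and the part of their label in it was not tested. In the main fit, the log2 difference of the 82-kDa from the 69-kDa line comes from the means of the lines, without the arrays labelled wild type. Its standard error (SE), interval and p-value do draw on those arrays, because all groups share a common estimate of the spread.

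Integrins are receptors made of 1 α and 1 β chain that span the cell membrane, bind matrix proteins or counter-receptors outside the cell and link them to actin through adaptor proteins. Laminins are trimers of 1 α, 1 β and 1 γ chain, secreted as the main adhesive proteins of basement membranes. Neural crest cells, from which neuroblastoma arises, migrate over laminin and fibronectin with integrins of the β1 family, and epithelial cells stand on laminin through receptors that hold the α6 chain.

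The sequences just before the transcription starts are shown for members that stood lower in both lines (ITGA6, LAMC1, LAMB2 and ITGA5), for the members that stood higher in 1 of the lines (LAMB1 and ITGA4) and for ITGB1, the common β chain, which passed no test. RefSeq's promoter table for GRCh38.p14 held 30 starts of 23 members and none of the other 10. Each line gives the 250 bases upstream of 1 start, 5′ to 3′ on the strand of the gene. The windows lie at chr2:172427336-172427585 on the plus strand for ITGA6, chr1:183023170-183023419 on the plus strand for LAMC1, chr3:49133051-49133300 on the minus strand for LAMB2 and chr12:54419267-54419516 on the minus strand for ITGA5. They lie at chr7:108003162-108003411 on the minus strand for LAMB1, chr2:181457136-181457385 on the plus strand for ITGA4 and chr10:32958231-32958480 on the minus strand for ITGB1. Capitals mark the GC box GGGCGG, and in ITGA5 and ITGB1 also the TEAD motif GGAATG, in either orientation.
ITGA6: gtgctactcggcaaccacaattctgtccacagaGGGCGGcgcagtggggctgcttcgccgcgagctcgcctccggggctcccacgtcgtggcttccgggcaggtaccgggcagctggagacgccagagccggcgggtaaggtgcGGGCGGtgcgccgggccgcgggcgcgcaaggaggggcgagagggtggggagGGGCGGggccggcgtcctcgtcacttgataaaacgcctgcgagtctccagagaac
LAMC1: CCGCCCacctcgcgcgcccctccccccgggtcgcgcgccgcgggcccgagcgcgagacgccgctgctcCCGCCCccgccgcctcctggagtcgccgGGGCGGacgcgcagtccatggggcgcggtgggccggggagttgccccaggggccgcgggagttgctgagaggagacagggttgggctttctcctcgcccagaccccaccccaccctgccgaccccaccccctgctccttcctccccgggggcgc
LAMB2: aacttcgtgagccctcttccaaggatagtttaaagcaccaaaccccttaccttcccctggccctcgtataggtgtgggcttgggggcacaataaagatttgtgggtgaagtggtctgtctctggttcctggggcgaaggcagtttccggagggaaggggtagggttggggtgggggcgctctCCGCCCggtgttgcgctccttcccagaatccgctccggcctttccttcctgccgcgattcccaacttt
ITGA5: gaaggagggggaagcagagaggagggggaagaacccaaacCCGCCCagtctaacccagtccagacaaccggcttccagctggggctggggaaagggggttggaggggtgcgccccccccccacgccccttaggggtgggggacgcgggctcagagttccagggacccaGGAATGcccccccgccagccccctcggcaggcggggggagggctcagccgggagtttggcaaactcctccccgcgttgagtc
LAMB1: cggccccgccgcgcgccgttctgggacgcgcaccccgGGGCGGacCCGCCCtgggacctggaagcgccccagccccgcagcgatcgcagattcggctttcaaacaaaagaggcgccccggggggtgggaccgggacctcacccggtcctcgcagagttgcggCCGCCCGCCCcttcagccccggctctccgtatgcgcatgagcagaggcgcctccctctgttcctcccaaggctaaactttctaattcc
ITGA4: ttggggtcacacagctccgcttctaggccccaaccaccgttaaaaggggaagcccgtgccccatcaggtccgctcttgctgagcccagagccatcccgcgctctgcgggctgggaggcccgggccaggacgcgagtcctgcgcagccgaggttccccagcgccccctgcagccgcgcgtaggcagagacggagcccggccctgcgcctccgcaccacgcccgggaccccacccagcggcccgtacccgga
ITGB1: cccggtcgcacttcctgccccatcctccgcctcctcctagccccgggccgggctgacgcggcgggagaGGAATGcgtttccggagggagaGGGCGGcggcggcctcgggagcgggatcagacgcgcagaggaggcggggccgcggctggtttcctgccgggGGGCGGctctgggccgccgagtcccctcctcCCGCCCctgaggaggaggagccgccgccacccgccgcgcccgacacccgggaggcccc

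The GC box GGGCGG, the letters bound by SP1-type factors, was found in 16 of the 30 member windows and in 42.6% of all 35116 promoters of the same length. It occurred 3 times in the windows of ITGA6, LAMC1 and ITGB1, 4 times in that of LAMB1, and 1 time in those of LAMB2 and ITGA5. The TEAD motif GGAATG was found in 4 of the 30 member windows, 1 each of ITGA10, ITGA5, ITGB1 and LAMA2, and in 11.9% of all promoters. The AP-1 letters TGANTCA occurred in LAMB3 alone among the members (6.57% of all promoters), and the MYC-type E-box CACGTG in ITGA6 alone (6.34%), in the window of its other start at chr2:172427086-172427335. The CCAAT box, searched as CCAAT, was found in 5 of the 30 member windows and 32.0% of all promoters, and TATAAA in 2 of the 30 and 10.7%. All were searched on both strands, and the windows of a gene with several starts can overlap. The ITGA4 window held none of these letters. The median share of G and C was 60.0% over the 30 member windows against 58.0% over all promoters. By call, a GC box stood in a window of 6 of the 10 members with a window that were lower in a line (not in ITGAE, ITGAV, LAMA2 and LAMA4) and of 6 of the 11 that were called in neither. A match describes the letters and is no evidence of a bound factor.

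In the 69-kDa line, 9 of the 33 members were lower than on the arrays labelled wild type and 1 was higher (limma, Benjamini-Hochberg adjusted p under 0.05 over 22215 probe sets). Over all 11963 genes 17.7% were called lower and 11.7% higher. The lower members were ITGA5, ITGA6, ITGA7, ITGAE, ITGAV, ITGB5, LAMB2, LAMB3 and LAMC1, and the higher one was LAMB1. In the 82-kDa line 11 members were lower and 1 was higher, against 18.5% and 11.8% of all genes. The lower ones were ITGA5, ITGA6, ITGA7, ITGAE, ITGAV, ITGB5, LAMA2, LAMA4, LAMB2, LAMB3 and LAMC1, and the higher one was ITGA4. The median log2 difference of the 33 members was 0.05 for the 69-kDa line and 0.03 for the 82-kDa line, beside 0.05 for all genes in each. The comparisons share their 3 control arrays, so they are not independent of each other. With the replicate number as a block, 2 members were higher and 13 lower in the 69-kDa line, and 4 higher and 13 lower in the 82-kDa line. Over all genes the block called 17.4% higher and 22.9% lower in the 69-kDa line, and 18.3% and 23.6% in the 82-kDa line. RNA came from whole cultures, in which fewer cells of a type and less RNA per cell cannot be told apart.

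**Figure D1:**
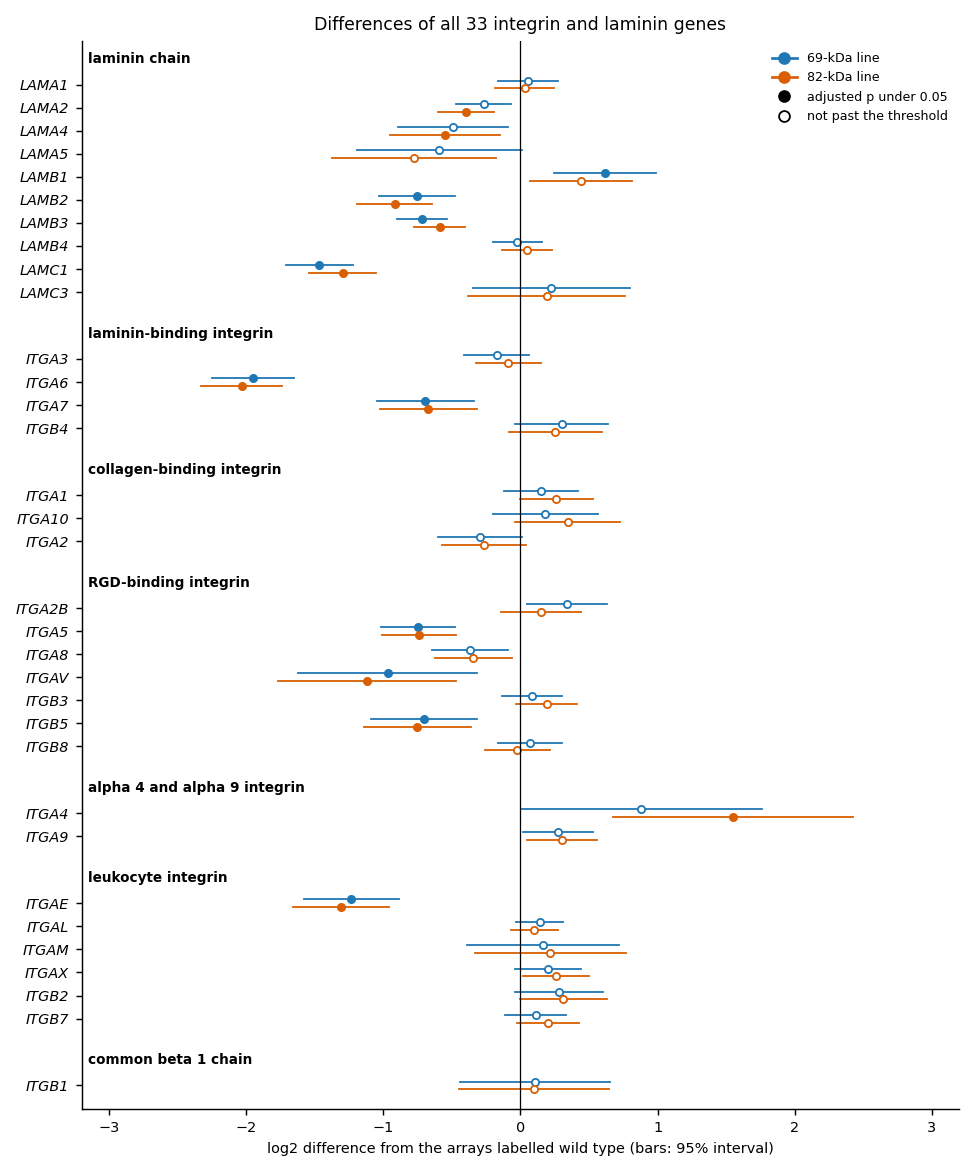
Log2 difference of each line from the arrays labelled wild type for all 33 members, ordered by role, with 95% intervals from limma. Filled points passed an adjusted p of 0.05. ITGA6 lies farthest to the left in both lines (-1.95 and -2.03) and ITGA4 farthest to the right in the 82-kDa line (1.55), while ITGB1 lies near 0.

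Among the 10 laminin chains, 3 were lower and 1 higher in the 69-kDa line, beside 17.7% and 11.7% of all genes. In the 82-kDa line 5 of these chains were lower and 0 higher, beside 18.5% and 11.8% of all genes. The median log2 differences of the 10 chains were -0.38 and -0.47, beside 0.05 for all genes. With the replicate block 6 laminin chains were lower in each line (22.9% and 23.6% of all genes), since LAMA5 passed in both lines and LAMA2 and LAMA4 in the 69-kDa line as well.

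LAMC1 encodes γ1, the γ chain of most laminins. It read 520.1, 563 and 561 for the 69-kDa line, 676, 584 and 594 for the 82-kDa line and 1333, 1703 and 1532 on the arrays labelled wild type. Every array of either line lay below every array labelled wild type. LAMC1 was 2.77-fold lower in the 69-kDa line (log2 difference -1.47, SE 0.11, limma adjusted p = 1.9e-05) and 2.46-fold lower in the 82-kDa line (-1.30, SE 0.11, adjusted p = 3.98e-05). Its other probe set gave -1.39 and -1.16 and passed in both lines.

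LAMB2 encodes the β2 chain, found at synapses and in basement membranes of muscle and kidney. Its intensities were 149, 131 and 115 on the arrays labelled wild type, against 89.6, 69.8 and 74.3 for the 69-kDa line and 69.1, 69.1 and 69.5 for the 82-kDa line. The lines did not overlap with those arrays. LAMB2 was 1.69-fold lower in the 69-kDa line (log2 difference -0.76, SE 0.12, limma adjusted p = 0.00173) and 1.89-fold lower in the 82-kDa line (-0.92, adjusted p = 0.000596).

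LAMB3 encodes β3, a chain of the laminin that anchors epithelia. It read 55.6, 51.5 and 50.4 on the 69-kDa arrays, 58.3, 60.0 and 53.6 on the 82-kDa arrays and 81.8, 87.9 and 88.9 on those labelled wild type. Neither line overlapped with the latter arrays, although the lines overlapped with each other, and all arrays of the 69-kDa line lay near background, taken as intensities under 55.9, the smallest of the 9 arrays' lower quartiles. The folds are therefore approximate, about 1.64-fold lower in the 69-kDa line (limma adjusted p = 0.000235) and 1.51-fold lower in the 82-kDa line (adjusted p = 0.000716). The epithelial markers KRT8, KRT18, KRT19, EPCAM, DSP and CDH1 were lower in both lines as well, 6 of 6 in each, and their part in the result was not tested.

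LAMB1, the β1 chain that pairs with γ1 in the early embryonic laminin, went the other way. It read 600.0, 375 and 400.1 for the 69-kDa line, 394, 398 and 399 for the 82-kDa line and 270.0, 309 and 299.9 on the arrays labelled wild type. Both lines lay above all of those arrays, and replicate 1 of the 69-kDa line was the highest array of all. The log2 difference was 0.62 (SE 0.16, a 1.53-fold rise, limma adjusted p = 0.0218) in the 69-kDa line and 0.44 (adjusted p = 0.0807) in the 82-kDa line. The 69-kDa call was lost without replicate 1 of the arrays labelled wild type (adjusted p = 0.0754) and without their replicate 3 (0.056), while without replicate 1 of the 69-kDa line the 82-kDa difference passed (0.00342). With only the 6 arrays of each comparison fitted, the 69-kDa call was lost and the 82-kDa difference passed. The other LAMB1 probe set read 170.4, 261 and 237 on the arrays labelled wild type, against 378, 294 and 354 for the 69-kDa line and 146, 253 and 359 for the 82-kDa line. It gave 0.63 (adjusted p = 0.177) and 0.11 (adjusted p = 0.809). In the 69-kDa line the difference was thus of the same size in both probe sets and its arrays lay above those labelled wild type in both, but only the brighter one was called.

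LAMA4, the α4 chain of vessel walls and fat, depended most on the probe set. The brightest of its 5 read 131, 114 and 100.4 on the 69-kDa arrays, 111, 114 and 106 on the 82-kDa arrays and 198, 121 and 175 on those labelled wild type. The log2 difference was -0.55 in the 82-kDa line (limma adjusted p = 0.0489) and -0.49 in the 69-kDa line (0.073, and 0.0435 with the replicate block). Leaving out an array ended the 82-kDa call in 7 of 9 cases. The adjusted p was 0.0755 and 0.056 without replicates 2 and 3 of the 69-kDa line, 0.088, 0.101 and 0.118 without replicates 1, 2 and 3 of the 82-kDa line, and 0.148 without replicate 1 or 3 of the arrays labelled wild type. Without their replicate 2 the 69-kDa difference passed (adjusted p = 0.00671). The fourth brightest LAMA4 probe set read 30.2, 27.3 and 25 for the 69-kDa line, 30.2, 27.3 and 23 for the 82-kDa line and 82.8, 226 and 191 on the arrays labelled wild type. It was near background in both lines, so that its log2 differences of about -2.48 and -2.52 are approximate (adjusted p = 0.000582 and 0.000534). The third was also lower in both lines (-0.53 and -0.60), whereas the second stood 0.10 and 0.20 above the arrays labelled wild type on the log2 scale and passed in neither line. The fifth, near background throughout, differed by 0.02 and 0.04.

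LAMA2 encodes the α2 chain of muscle and peripheral nerve. It read 61.6, 61.1 and 55.5 on the arrays labelled wild type, against 53.0, 47.0 and 48.1 for the 69-kDa line and 45.1, 48.3 and 41.8 for the 82-kDa line, both near background. The lines lay below those arrays by a small margin. The log2 difference was -0.40 in the 82-kDa line (SE 0.09, limma adjusted p = 0.00988) and -0.27 in the 69-kDa line (adjusted p = 0.0567, and 0.0266 with the replicate block). Without replicate 1 of the 69-kDa line that difference passed (0.0372). The second brightest of its 4 probe sets gave -0.14 in the 82-kDa line (adjusted p = 0.329).

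The remaining laminin chains were LAMA1, LAMA5, LAMB4 and LAMC3, and none was called. LAMA5, the α5 chain of most adult basement membranes, read 144, 134 and 122 on the 69-kDa arrays, 155, 94.8 and 109 on the 82-kDa arrays and 301, 181 and 148 on those labelled wild type. The 82-kDa line overlapped with those arrays. The differences of -0.59 and -0.78 missed the threshold (limma adjusted p = 0.148 and 0.0608) and passed with the replicate block (0.0258 and 0.00843). The 82-kDa difference also passed without replicate 1 of that line (0.027) and without replicate 3 of the arrays labelled wild type (0.0317). LAMA1, an embryonic α chain, differed by 0.05 and 0.03, and LAMB4 was near background in every group. LAMC3, which encodes γ3, read 114, 85.2 and 89.3 for the 69-kDa line, 134, 80.9 and 74.6 for the 82-kDa line and 107, 70.8 and 71.6 on the arrays labelled wild type. Its replicate 1 was the highest of all 3 groups, by 0.39, 0.79 and 0.59 on the log2 scale over the mean of replicates 2 and 3.

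**Figure D2:**
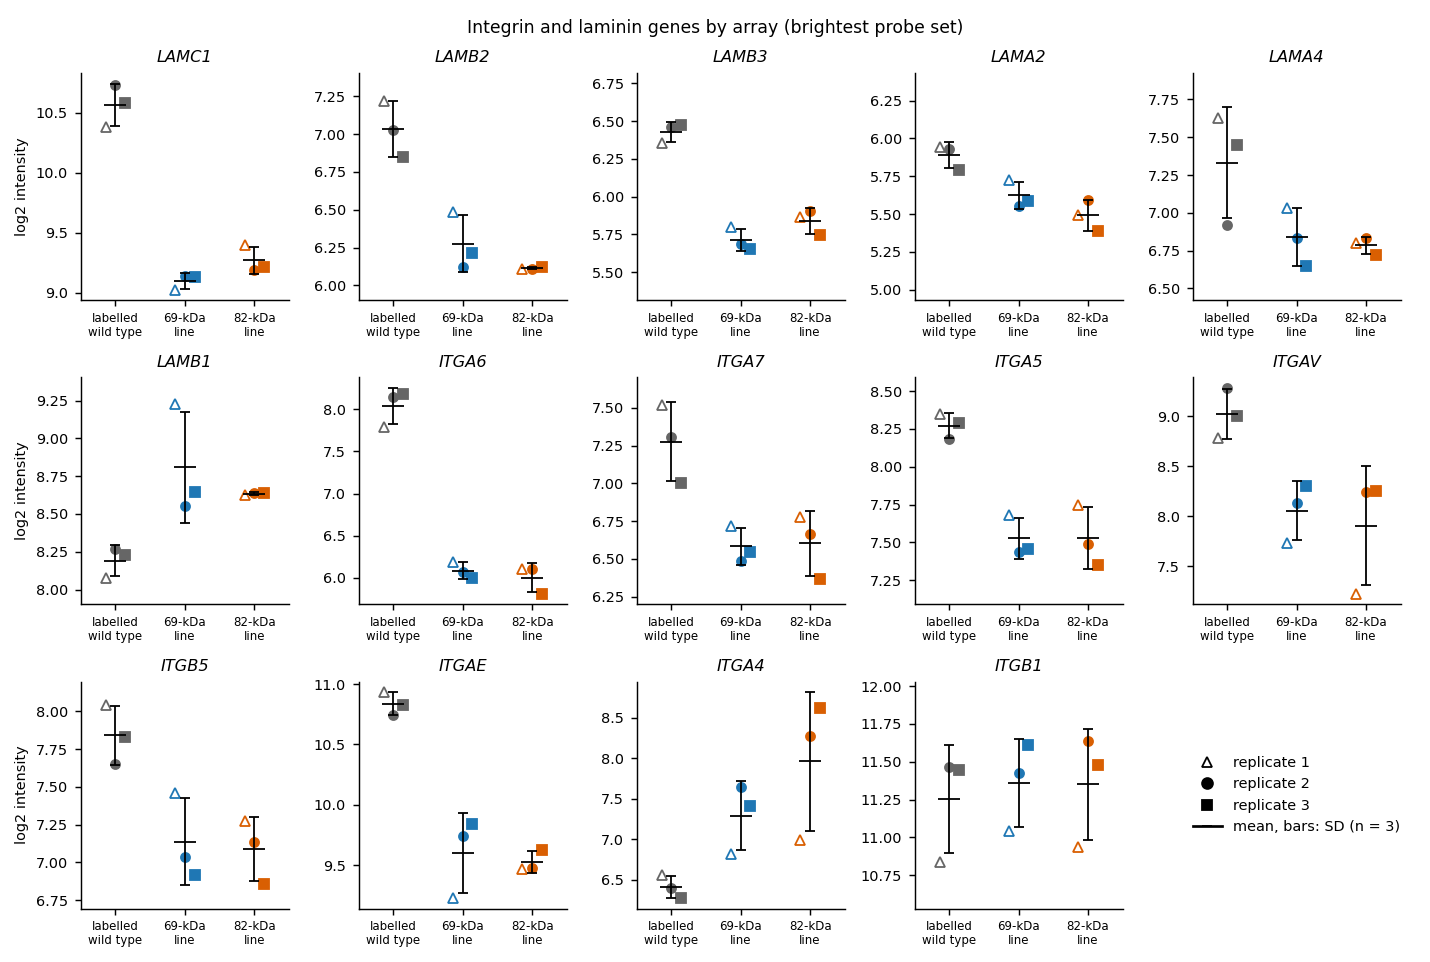
Log2 intensity of 14 members on each of the 9 arrays, with the mean and SD (n = 3) of each group. The vertical scale differs between panels. In LAMC1, ITGA6, ITGA5 and ITGAE every array of the lines lies below every array labelled wild type, while in ITGB1 the 3 groups overlap and replicate 1 is the lowest of each.

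Of the laminin receptors, ITGA6 showed the largest difference of any member's brightest probe set in both lines. It encodes α6, which pairs with β1 or, in epithelial hemidesmosomes, with β4. ITGA6 read 221, 283 and 289.7 on the arrays labelled wild type, against 73.2, 67.0 and 63.9 for the 69-kDa line and 68.6, 68.8 and 56.1 for the 82-kDa line. The lines overlapped with each other and lay far below those arrays. ITGA6 was 3.87-fold lower in the 69-kDa line (log2 difference -1.95, SE 0.13, limma adjusted p = 1.16e-05) and 4.09-fold lower in the 82-kDa line (-2.03, SE 0.13, adjusted p = 9.12e-06). Both lines read little above the limit of 55.9 for near background, so these folds are approximate. A dimmer probe set was also lower in both lines, where it was near background, and its size of difference is not used. The epithelial markers EPCAM, KRT19, CDH1 and DSP were near background in the same lines (summed intensities of the 6 markers from 253 to 296, against 5408 to 6176), and their part in the ITGA6 result was not tested.

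ITGA7, the α7 laminin receptor chain of muscle, read 105, 89.6 and 93.4 on the 69-kDa arrays, 109.9, 102 and 82.4 on the 82-kDa arrays and 183, 158 and 128 on those labelled wild type. Neither line overlapped with those arrays. It was 1.62-fold lower in the 69-kDa line (log2 difference -0.69, SE 0.15, limma adjusted p = 0.00973) and 1.59-fold lower in the 82-kDa line (-0.67, adjusted p = 0.0115), and its second probe set was also lower in both (-0.65 and -0.80).

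ITGA3, the α3 chain that also binds laminin, was not called. Its differences were -0.17 and -0.09 (limma adjusted p = 0.282 and 0.567), with 95% intervals of -0.41 to 0.06 and -0.33 to 0.15. ITGB4, the β4 partner of α6, read 114, 96.7 and 91.1 for the 69-kDa line, 112, 97.8 and 83.0 for the 82-kDa line and 94.1, 80.5 and 71.3 on the arrays labelled wild type. The groups overlapped, and the differences of 0.30 and 0.25 missed the threshold (adjusted p = 0.191 and 0.258). With the replicate block both passed (0.00809 and 0.0164), in the direction opposite to ITGA6. The collagen receptor chains ITGA1, ITGA2 and ITGA10 were not called in either line, and ITGA1 was near background in every group, although its 82-kDa difference of 0.26 passed without replicate 1 of that line (limma adjusted p = 0.0311). With the block ITGA10 passed as higher in the 82-kDa line (log2 difference 0.34, adjusted p = 0.0396).

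Among chains that bind the RGD sequence of fibronectin and vitronectin, ITGA5, ITGAV and ITGB5 were lower in both lines. ITGA5 encodes α5 of the main fibronectin receptor. It read 325, 291 and 312 on the arrays labelled wild type, against 205, 173 and 176 for the 69-kDa line and 215, 179.8 and 163 for the 82-kDa line. The lines overlapped with each other and not with those arrays. ITGA5 was 1.68-fold lower in the 69-kDa line (log2 difference -0.75, SE 0.12, limma adjusted p = 0.00167) and 1.67-fold lower in the 82-kDa line (-0.74, adjusted p = 0.00173). Its ligand fibronectin, FN1, named after its values were seen, was 5.75-fold and 5.38-fold lower in the lines.

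ITGAV encodes αV, the α chain shared by the vitronectin receptors. It read 212, 281 and 316 on the 69-kDa arrays, 149, 303 and 306 on the 82-kDa arrays and 442, 624 and 512 on those labelled wild type. No array of the lines reached those arrays, and replicate 1 of the 82-kDa line was the lowest of all. The log2 difference was -0.97 (SE 0.29, limma adjusted p = 0.0357) in the 69-kDa line and -1.12 (SE 0.29, adjusted p = 0.0189) in the 82-kDa line. The 69-kDa call was lost without replicate 1 (adjusted p = 0.101) or 2 (0.0798) of that line and without replicate 1, 2 or 3 of the arrays labelled wild type (0.052, 0.121 and 0.0884). For the 82-kDa line it was lost without replicate 2 or 3 of those arrays (0.0725 and 0.0539).

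ITGB5, a β partner of αV, read 176, 131 and 121 for the 69-kDa line, 155, 141 and 116 for the 82-kDa line and 263, 201 and 228 on the arrays labelled wild type. The groups lay apart from those arrays. It was 1.63-fold lower in the 69-kDa line (log2 difference -0.70, SE 0.17, limma adjusted p = 0.015) and 1.68-fold lower in the 82-kDa line (-0.75, adjusted p = 0.0109). The 69-kDa call was lost without replicate 2 or 3 of that line (0.0591 and 0.0572) or replicate 1 of the arrays labelled wild type (0.0569). The second brightest ITGB5 probe set read 82.4 to 99.5 on the arrays labelled wild type, 78.4 to 96.7 in the 69-kDa line and 74.6 to 88.9 in the 82-kDa line. Its differences of -0.05 and -0.13 did not pass (adjusted p = 0.807 and 0.443). The other pair of ITGB5 probe sets, near background in every group, gave -0.54 and -0.19 in the 69-kDa line, where the first passed (adjusted p = 0.0285), and -0.63 and -0.24 in the 82-kDa line, where both did (0.014 and 0.0226). In the 82-kDa line only the second brightest thus did not pass, whereas in the 69-kDa line the probe set at -0.19 did not pass either.

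The other RGD-binding chains were not called. ITGA8, a receptor chain for nephronectin, read 105, 80.0 and 84.1 on the arrays labelled wild type, against 75.6, 67.8 and 64.1 for the 69-kDa line and 75.9, 64.2 and 70.8 for the 82-kDa line. The lines lay below those arrays, yet the differences of -0.37 and -0.34 missed the threshold (limma adjusted p = 0.0583 and 0.0724), and both passed with the replicate block (0.00837 and 0.0109). The 69-kDa difference also passed without replicate 1 of that line (0.0453). ITGA2B and ITGB3, the chains of the platelet fibrinogen receptor, differed by 0.34 and 0.08 in the 69-kDa line and by 0.15 and 0.19 in the 82-kDa line. The ITGA2B difference in the 69-kDa line passed without replicate 2 of the arrays labelled wild type (adjusted p = 0.03, against 0.0874 with all arrays). None of the 4 platelet markers was called. ITGB8, a partner of αV in the release of TGF-β, differed by 0.07 and -0.02.

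**Figure D3:**
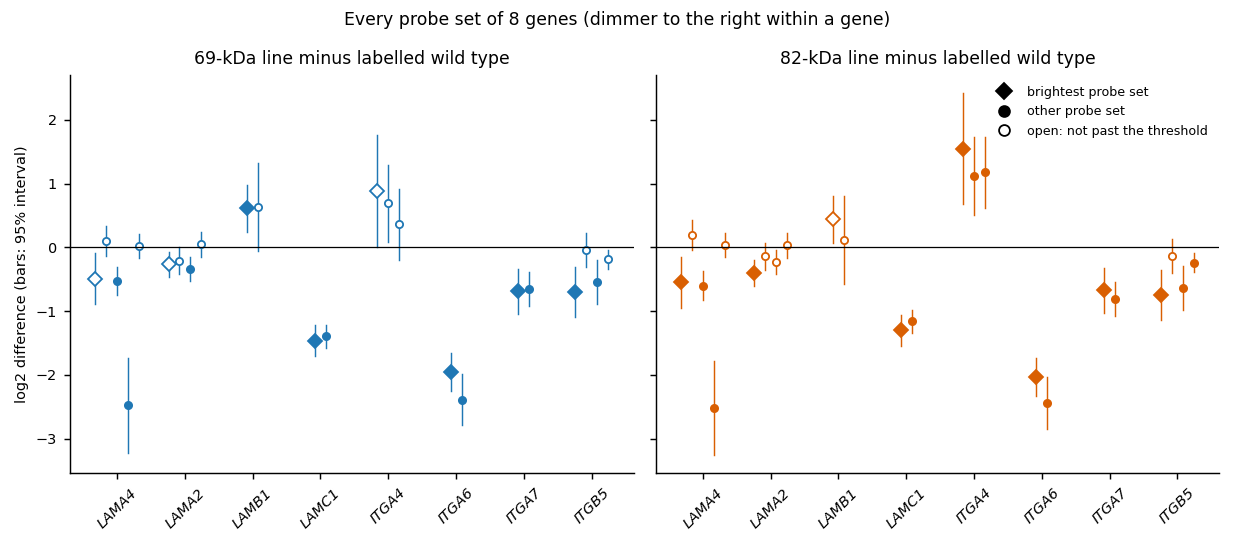
Log2 differences from the arrays labelled wild type for every probe set of 8 members, with 95% intervals from limma. Diamonds are the brightest probe set of a gene, and filled symbols passed an adjusted p of 0.05. Every probe set of LAMC1, ITGA6 and ITGA7 lies below 0 in both lines, while those of LAMA4 run from 0.20 to -2.52 in the 82-kDa line, the lowest from a probe set near background there.

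ITGA4 was the only member called higher in the 82-kDa line. It encodes α4, which binds fibronectin and VCAM1 and is found on neural crest cells and leukocytes. ITGA4 read 113, 199.8 and 171 on the 69-kDa arrays, 128, 308 and 394 on the 82-kDa arrays and 94.1, 84.2 and 77.8 on those labelled wild type. Both lines lay above those arrays on every array, and replicate 1 was the lowest of each line. ITGA4 was 2.93-fold higher in the 82-kDa line (log2 difference 1.55, SE 0.38, limma adjusted p = 0.0164), and all 3 of its probe sets passed there. The dimmer ones were near background on the arrays labelled wild type. In the 69-kDa line the difference of the brightest was 0.88 (adjusted p = 0.139). It passed without replicate 1 of the 82-kDa line (0.0141) and with replicates 2 and 3 alone (1.19, adjusted p = 0.000605). The 69-kDa difference also passed with only the 6 arrays compared.

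The 82-kDa call of ITGA4 rested on few arrays. It was lost without replicate 2 or 3 of the 82-kDa line (adjusted p = 0.0629 and 0.0518) and without replicate 2 or 3 of the arrays labelled wild type (0.0517 and 0.0571). Replicate 1 lay below the mean of replicates 2 and 3 by 0.71 on the log2 scale in the 69-kDa line and by 1.45 in the 82-kDa line, and 0.22 above it on the arrays labelled wild type. The 6 measured leukocyte markers had summed intensities of 1020 to 1217 on the arrays labelled wild type, 744 to 974 in the 69-kDa line and 746 to 969 in the 82-kDa line. Their median log2 difference was 0.09 and 0.11 in the lines, so the sum and the median differ in direction. LCP1 was the 1 called, lower in both lines. Their part in the ITGA4 result was not tested. SPI1 was near background in every group, and PTPRC read 59.0 to 82.0 on all arrays. ITGA9, the relative of α4 that binds tenascin, was 0.27 and 0.30 above the arrays labelled wild type and not called (adjusted p = 0.117 and 0.0806).

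Of the leukocyte integrin chains, ITGAE alone was called. It encodes αE, which pairs with β7 and binds E-cadherin on epithelial cells. ITGAE read 599, 855 and 919 for the 69-kDa line, 709.6, 712 and 792 for the 82-kDa line and 1957, 1715 and 1818 on the arrays labelled wild type. The groups lay well apart from those arrays. It was 2.35-fold lower in the 69-kDa line (log2 difference -1.23, SE 0.15, limma adjusted p = 0.000419) and 2.48-fold lower in the 82-kDa line (-1.31, adjusted p = 0.000292). ITGB7, its partner, differed by 0.11 and 0.20 and was not called (adjusted p = 0.469 and 0.179).

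Among the 6 measured leukocyte markers LCP1 was the one called, lower in both lines, and its part in the ITGAE result was not tested. ITGAL, ITGAX and ITGB2, chains of lymphocyte and myeloid receptors, differed by 0.10 to 0.31 on the log2 scale and none was called. ITGAM, the α chain of a myeloid complement receptor, read 124, 86.0 and 82.9 on the arrays labelled wild type, against 145, 94.9 and 90.5 for the 69-kDa line and 145, 100.1 and 95.5 for the 82-kDa line. Replicate 1 was the highest in each group, by 0.64, 0.57 and 0.55 on the log2 scale. Its differences of 0.16 and 0.22 were not called, and with the replicate block that of the 82-kDa line passed (adjusted p = 0.0246).

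ITGB1 encodes β1, the partner of most of the α chains above. It read 2105, 2751 and 3132 on the 69-kDa arrays, 1958, 3192 and 2848 on the 82-kDa arrays and 1834, 2829 and 2794 on those labelled wild type. The 3 groups overlapped, and replicate 1 was the lowest of each, by 0.48, 0.62 and 0.62 on the log2 scale. The log2 difference was 0.11 in the 69-kDa line (95% interval -0.44 to 0.66, limma adjusted p = 0.774) and 0.10 in the 82-kDa line (-0.45 to 0.65, adjusted p = 0.785). With the replicate block the intervals narrowed to -0.09 to 0.31 and -0.10 to 0.30 (adjusted p = 0.345 and 0.375).

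No member was called between the lines. In the comparison of the 82-kDa with the 69-kDa line 0 of 33 members, read by their brightest probe sets, were higher and 0 lower. On these probe sets 0 had an unadjusted p under 0.05 (limma). The dimmest ITGA4 probe set was 0.82 higher in the 82-kDa line (95% interval 0.26 to 1.38, limma unadjusted p = 0.00937) and was not called. It was near background in the 69-kDa line, so that the size of this difference is approximate. On the single arrays LAMC1 was higher in each 82-kDa array than in each 69-kDa array, and LAMB2 lower, but neither difference passed. How many of all genes lay apart in this way was not counted, so no trait of the members is read from it. Over all genes 0% were called in either direction, and 441 of 11963 had an unadjusted p under 0.05. The differences were 0.17 for LAMC1 (95% interval -0.07 to 0.41), -0.08 for ITGA6 (-0.38 to 0.22) and 0.00 for ITGA5 (-0.27 to 0.27). The widest interval belonged to ITGA4, at 0.67 (-0.21 to 1.55), and that of ITGAV reached from -0.80 to 0.50. Differences between the forms of up to these bounds could therefore have been missed. With replicates 2 and 3 alone ITGA4 was higher in the 82-kDa line by 0.92 (adjusted p = 0.0286) and no other member passed, beside 135 of all 11963 genes higher and 158 lower. With the replicate block 0 members passed.

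The adaptors that tie integrins to actin were called in both directions. Of 38 listed genes 31 were measured, and 4 were higher and 8 lower in the 69-kDa line and as many in the 82-kDa line, with median log2 differences of -0.09 and -0.07 in the same order. Over all genes 11.7% and 11.8% were higher and 17.7% and 18.5% lower. TES, a LIM-domain protein of focal adhesions, was 9.60-fold lower in the 69-kDa line and 9.39-fold lower in the 82-kDa line (limma adjusted p = 1.8e-06 and 1.97e-06). ACTN4, an actin cross-linker, was 2.42-fold and 2.43-fold lower. TLN1, the talin that binds integrin β tails, was 2.01-fold and 1.65-fold lower. TGFB1I1, a paxillin relative, read 276, 330.3 and 364 for the 69-kDa line, 276, 212 and 213 for the 82-kDa line and 82.8, 88.3 and 75.0 on the arrays labelled wild type. It was 3.92-fold and 2.83-fold higher (adjusted p = 1.71e-05 and 8.61e-05). The other higher adaptors, named after their values were seen, were TLN2, a second talin, TNS3 and NEDD9.

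Matrix partners, other laminin receptors and integrin ligands were more often called lower than higher, as were all genes. Of 33 listed genes 29 were measured. In the 69-kDa line 15 were lower and 0 higher (3 higher with the replicate block), and in the 82-kDa line 16 were lower and 1 higher (3 with the block), with medians of -0.54 and -0.55. Of all genes 17.7% and 18.5% were called lower and 11.7% and 11.8% higher, or 17.4% and 18.3% higher with the block. SDC4, a heparan sulfate co-receptor of integrins, was about 4.79-fold lower in the 69-kDa line and 5.14-fold lower in the 82-kDa line, where it was near background (limma adjusted p = 5.8e-07 and 4.52e-07). NID2, a nidogen that joins laminin to collagen, read 164 to 190.0 on the arrays labelled wild type and, near background, 42.6 to 47.9 in the lines. AGRN, a laminin-binding proteoglycan of the synapse, was 3.74-fold and 4.15-fold lower. CD151, a tetraspanin partner of the laminin-binding integrins, was 2.25-fold and 2.55-fold lower (adjusted p = 4.7e-05 and 2.04e-05). The 1 gene called higher in the 82-kDa line, SGCB, a sarcoglycan, was 1.89-fold higher there and was named after its values were seen.

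**Figure D4:**
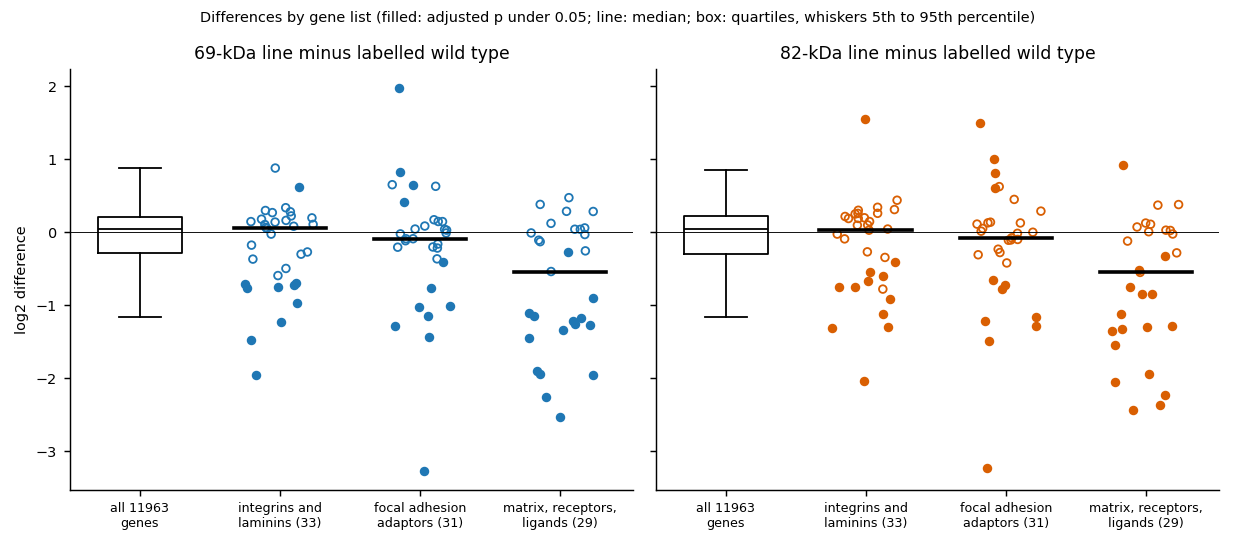
Log2 differences from the arrays labelled wild type for all 11963 genes (box of quartiles, whiskers from the 5th to the 95th percentile), the 33 integrin and laminin genes, 31 adhesion adaptors and 29 matrix partners, receptors and ligands. Filled points passed an adjusted p of 0.05 and bars are medians. The median of the matrix list lies at -0.54 and -0.55, and that of the 33 members at 0.05 and 0.03.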

How the data were processed

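RNA described as from IMR-32 was measured on 9 single-channel arrays, 3 per group, with groups and replicate numbers from the sample titles. The deposited values are intensities that the authors made with RMA (background correction, normalization between arrays, summary per probe set), per the submitters' processing notes. The values are on a linear scale, from 14.9 to 21486. The sources used here give neither the RMA version nor the step to that scale, and RMA can understate folds of dim genes. The number of arrays limits the precision.

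Of 22283 probe sets, 68 controls were left out and 22215 tested. The platform annotation gave 1 symbol to 19065, several to 1043 and none to 2107. Of the probe sets with 1 symbol, 19053 matched RefSeq by Entrez identifier, which changed 0 symbols. Log2 intensities were fitted with limma 3.58.1 in R 4.3.3 (3 group means over 9 arrays, eBayes, two-sided) and adjusted by Benjamini-Hochberg over the 22215 probe sets, at 0.05. The fit was tested on simulated data. Each gene was read by its brightest probe set, and 18 members have 1 probe set and 15 several. Near background means under an intensity of 55.9 on all arrays of a group. It held for 2 members in every group. No level is compared between probe sets of different genes. The p-values measure only the spread between these samples.

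The members, the gene lists and the rule for naming genes were chosen with earlier results of these data known. The rule named every member called in any contrast, members whose replicate 1 stood apart or whose probe sets disagreed, and the 4 genes of each pathway list with the smallest adjusted p. Marker lists of endothelial, fibroblast, Schwann and platelet cells had 0 or 1 gene called in either line. Arrays of the same replicate number deviated together from their group means (correlations of 0.28 to 0.57 in 9 of 9 pairs), so the replicate numbers from the titles were taken to pair the samples. The main fit left this pairing out, and the replicate block, an alternative, used it. Replicates 2 and 3 of different groups correlated with each other too (0.21 to 0.48), and replicate 1 was negatively correlated with both, so the check sets replicate 1 apart more than it tells 2 from 3. Alternatives covered scaling, a pseudocount of 16, a filter on dim probe sets, the choice of probe set, the variance model, array weights, the 6 arrays compared, the replicate block, replicates 2 and 3 alone, and each array left out. Promoters came from RefSeq's table (GRCh38.p14).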

Additional observations from a re-analysis of the deposited data

How the results depend on the processing

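ITGA5, ITGA6, ITGA7, ITGAE, LAMB2, LAMB3 and LAMC1 kept their direction and their call in both lines under every alternative run. With the second brightest probe set, members without another one, such as ITGA5 and ITGAE, were read by the same probe set again. Without probe sets ending in _s_at or _x_at, ITGA5 and ITGAE also stayed as they were, and LAMB2 dropped out. Over the values of called members 399 alternatives left direction and call as they were, 36 ended a call and 2 reversed a direction: LAMA4 in the 82-kDa line stood at 0.20 (adjusted p = 0.206) with its second brightest probe set and without probe sets ending in _s_at or _x_at. The cause was not tested. Repeats of the same probe set, which are no test, are counted among the 399. ITGAV in the 69-kDa line also missed the threshold with median centring (adjusted p = 0.0554). Scaling moved the median of all genes by less than 0.01. 

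Over all genes more were called with the replicate block, as given above. With replicates 2 and 3 alone 2341 of 11963 genes were higher and 2858 lower in the 69-kDa line, against 1397 and 2120 with all arrays. For the 82-kDa line these counts were 2417 and 2853, against 1409 and 2218. With array weights, calls over all genes were not counted, and for the remaining alternatives no share of all genes is given. Changes of the counts under these settings are therefore not read as a trait of the members or of the gene lists. Counts of called members moved by over 1.5 times as follows. Higher in the 69-kDa line (1) became 0 with the second brightest probe set and without _s_at and _x_at probe sets, 7 with array weights estimated gene by gene, 2 with the replicate block and 3 with replicates 2 and 3 alone, and ranged from 0 to 2 when an array was left out (0 without replicate 1 or 3 of the arrays labelled wild type). With the 6 arrays compared this count stayed at 1, but ITGA4 was called in place of LAMB1. Lower in the 69-kDa line (9) became 14 with array weights and ranged from 7 to 10. Higher in the 82-kDa line (1) became 6 with array weights, 2 with the 6 arrays compared, 4 with the replicate block and 4 with replicates 2 and 3 alone, and ranged from 0 to 2 (0 without replicate 2 or 3 of the 82-kDa line or of the arrays labelled wild type). Lower in the 82-kDa line (11) became 7 without _s_at and _x_at probe sets, where 27 members remain, and ranged from 10 to 11. Between the lines, array weights gave 2 higher and 1 lower, and replicates 2 and 3 alone gave 1 higher. 

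For the adhesion adaptors, replicates 2 and 3 alone gave 7 higher in each line and 1 lower between the lines. Array weights gave 7 higher in the 82-kDa line, and 2 higher and 1 lower between the lines. Without _s_at and _x_at probe sets 5 and 4 of the 24 adaptors that remain were lower, against 8 of 31 in each line with all probe sets. The matrix list was left with 20 of its 29 genes in this setting. When an array was left out, 3 to 5 were higher and 7 to 8 lower in each line. For the matrix list, genes higher in the 69-kDa line (0) became 1 with quantile normalization again, with the second brightest probe set and without _s_at and _x_at probe sets, 3 with array weights, 2 with the 6 arrays compared, 3 with the replicate block and 2 with replicates 2 and 3 alone, and ranged from 0 to 2 (2 without replicate 1 of either line). In the 82-kDa line they became 3 with array weights, 3 with the block and 2 with replicates 2 and 3 alone. Between the lines array weights gave 2 higher and 3 lower, replicates 2 and 3 alone 1 lower, and leaving out an array 0 to 1 lower (1 without replicate 1 of the 69-kDa line). The block changed no call of a member other than those given with the results.

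The array weights were chosen after seeing the data, because the default method of arrayWeights did not converge, and that planned setting was not run to a result. They put the most weight on replicate 2 of each line (5.66 and 4.24).

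Over all alternatives the adjusted p ran from 2.3e-05 to 0.0629 for ITGA4, 0.000757 to 0.0725 for ITGAV, 0.000693 to 0.443 for ITGB5, 0.00266 to 0.329 for LAMA2, 0.0048 to 0.206 for LAMA4, 0.00198 to 0.187 for LAMA5, 0.00616 to 0.214 for ITGA8, 0.0164 to 0.57 for ITGB4, 0.0246 to 0.963 for ITGAM and 0.0396 to 0.441 for ITGA10 in the 82-kDa line. In the 69-kDa line it ran from 0.000348 to 0.121 for ITGAV, 0.000243 to 0.807 for ITGB5 and 0.00541 to 0.177 for LAMB1.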
